A study of Mus musculus with 6 samples.

Results

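The 32 genes described here mark macrophages, either in general, as long-lived resident cells of the tissue, or as cells seen after injury. They were given as a list of symbols and looked up in a table of 31273 gene symbols from mouse left ventricle, where 31 of the 32 had a row. Trem2 was not analysed here. The genotype label was RBM20 overexpression restricted to cardiomyocytes in 3 libraries and control in the other 3. RBM20 is an RNA-binding protein that regulates splicing in heart and skeletal muscle. Per the series' design text, the overexpression came from a knock-in that tamoxifen switches on in cardiomyocytes, so the macrophages themselves were not the cells the transgene targeted. The sources used here do not give strain, age, sex, tamoxifen dose, time after induction, or whether control mice carried Cre or received tamoxifen. Polyadenylated RNA of whole left ventricle was sequenced, and values are TPM, each gene's share of a library's transcripts after correction for length, so levels can be compared between genes.

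Macrophages are phagocytes of the mononuclear lineage. CSF1 and IL-34 bind the receptor CSF1R, on which macrophage survival depends, and the transcription factor PU.1, encoded by Spi1, is needed for the lineage to form. In the mouse heart, resident macrophages seeded before birth are marked by Lyve1, Timd4 and Folr2 and renew themselves with little input from blood, whereas after injury circulating Ccr2-positive monocytes enter the muscle and become macrophages. Gpnmb and Lgals3 are typical of macrophages that clear debris and handle lipid in damaged tissue.

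The overexpressed gene followed the labels, with Rbm20 at 321, 913 and 907 TPM in overexpression replicates 1 to 3, against 74.9, 90.9 and 79.5 TPM in control replicates 1 to 3. Esr1, the estrogen receptor gene whose ligand-binding part is fused to Cre in tamoxifen-driven systems, was at 52.98 to 217.8 TPM in the overexpression libraries and at 0.234 to 0.415 TPM in the control libraries. Esr1 separated the groups as Rbm20 did, so any part of Cre in the macrophage levels cannot be told apart from that of RBM20. Overexpression replicate 1 carried the Y-linked Ddx3y at 88.1 TPM with Xist at 0.0172 TPM, and the other 5 libraries had Xist at 34.4 to 62.6 TPM with Ddx3y at 0. Mitochondrially encoded RNA took up 36.7% to 41.0% of the TPM in the overexpression libraries and 48.3% to 52.0% in the control libraries. Most genes stood higher in TPM in the overexpression libraries, so many differences are also given after rescaling. Rescaling divides every library by the median over genes of its ratio to the 6-library geometric mean. Folds are in TPM unless stated to be after rescaling. The median log2 difference of all 12404 tested genes was 0.55 in TPM and 0.01 after rescaling. Steps between low TPM values put the depth at an estimated 51000000 to 90000000 counted read ends in the overexpression libraries and 41600000 to 70600000 in the control libraries.

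Most macrophage genes rose in the overexpression ventricles. Of 31 genes, 29 were called higher in TPM (93.5%) and 0 lower, at a limma adjusted p below 0.05 over all genes tested, where 59.0% of all genes were called higher and 9.09% lower. None of the 31 was lower in the limma fit at an unadjusted p below 0.05 either, under both scalings. After rescaling 24 were called higher (77.4%) and 0 lower, against 22.2% of all genes called higher and 24.0% lower. All 29 had every overexpression library above every control library in TPM, as did 62.1% of all genes, and 24 did so after rescaling, as did 28.2% of all genes. The ratio of mean TPM was at least 2 in 26 genes, and among the 29 called it ran from 1.68 for Lyve1 to 6.999 for Fcgr1. After rescaling, the ratio in the same 29 genes ran from 1.08 to 4.53. The median log2 difference of the 31 genes was 1.46 in TPM and 0.88 after rescaling. All 31 reached the expression filter, a mean of 1 TPM over the 6 libraries, and 2 of them, Ms4a7 and Gpnmb, had a control mean under 1 TPM and passed it through the overexpression group. In whole-tissue RNA, more macrophages and more of these transcripts per macrophage cannot be told apart.

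**Figure D1:**
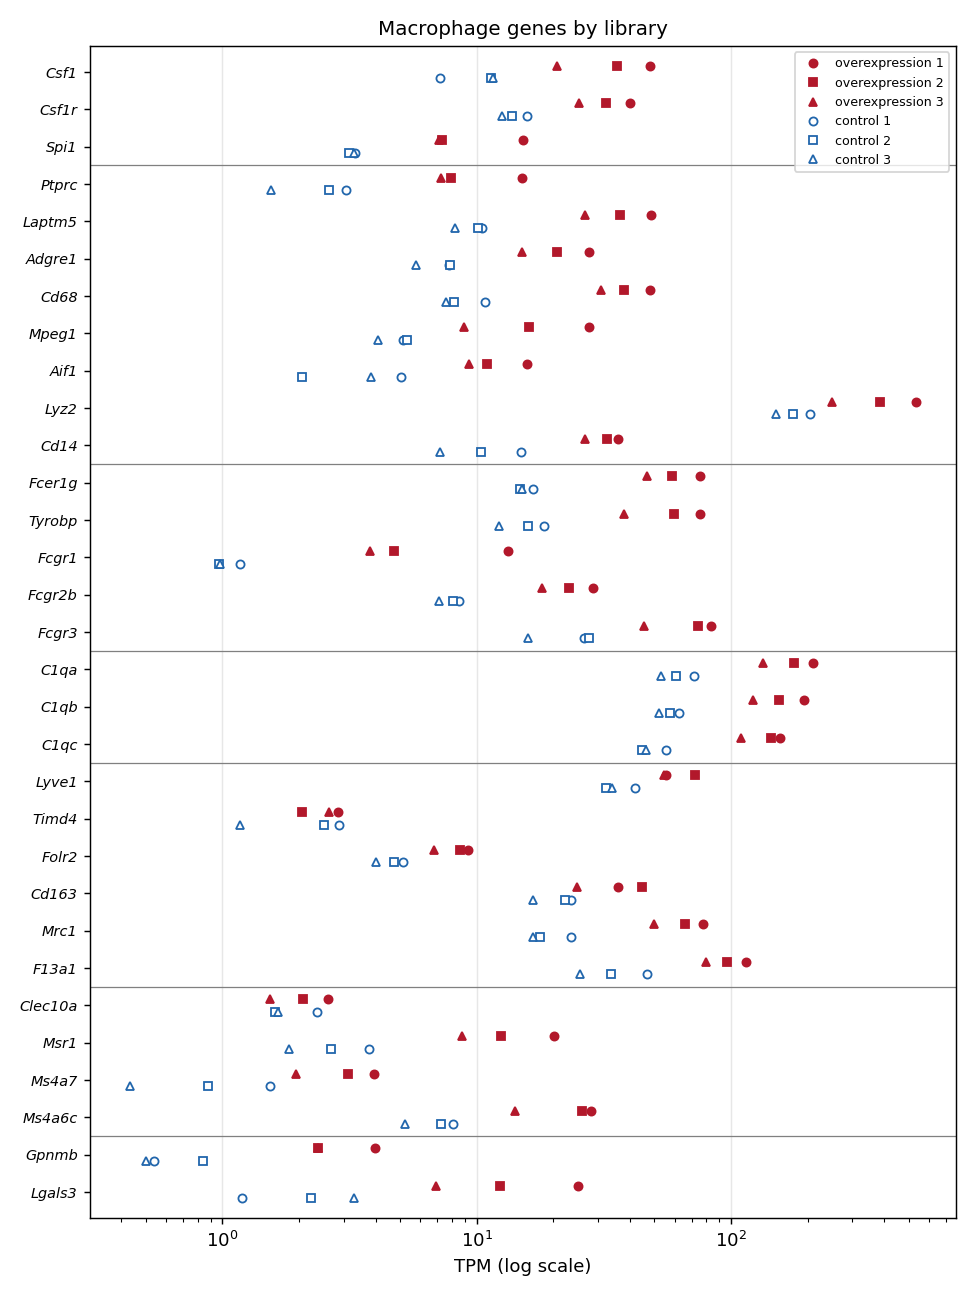
TPM of the 31 macrophage genes on a log scale, with filled red symbols for the 3 overexpression libraries and open blue symbols for the 3 control libraries, in blocks by role. Overexpression libraries sit to the right of all control libraries for 29 genes, and the groups overlap for Timd4 and Clec10a.

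The overexpression libraries differed among themselves in the same way for nearly all of these genes. Replicate 1 was the highest overexpression library for 29 of 31 genes and replicate 3 the lowest for 29. The geometric mean of 8 general leukocyte and macrophage genes (Ptprc, Laptm5, Adgre1, Cd68, Mpeg1, Aif1, Lyz2 and Cd14) was 41.0, 29.0 and 21.7 TPM in overexpression replicates 1 to 3, against 10.99, 8.73 and 7.44 TPM in control replicates 1 to 3. The library highest for macrophage genes was thus also the 1 with Y-linked RNA and the lowest Rbm20 of its group, and the part of either in these levels was not tested. Without overexpression replicate 1, 29 genes were still called higher in TPM, and 20 were called higher after rescaling (19.9% of all genes), the calls of Csf1r, Mpeg1, Aif1 and Fcgr3 having ended. This setting was chosen after the data had been seen.

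**Figure D2:**
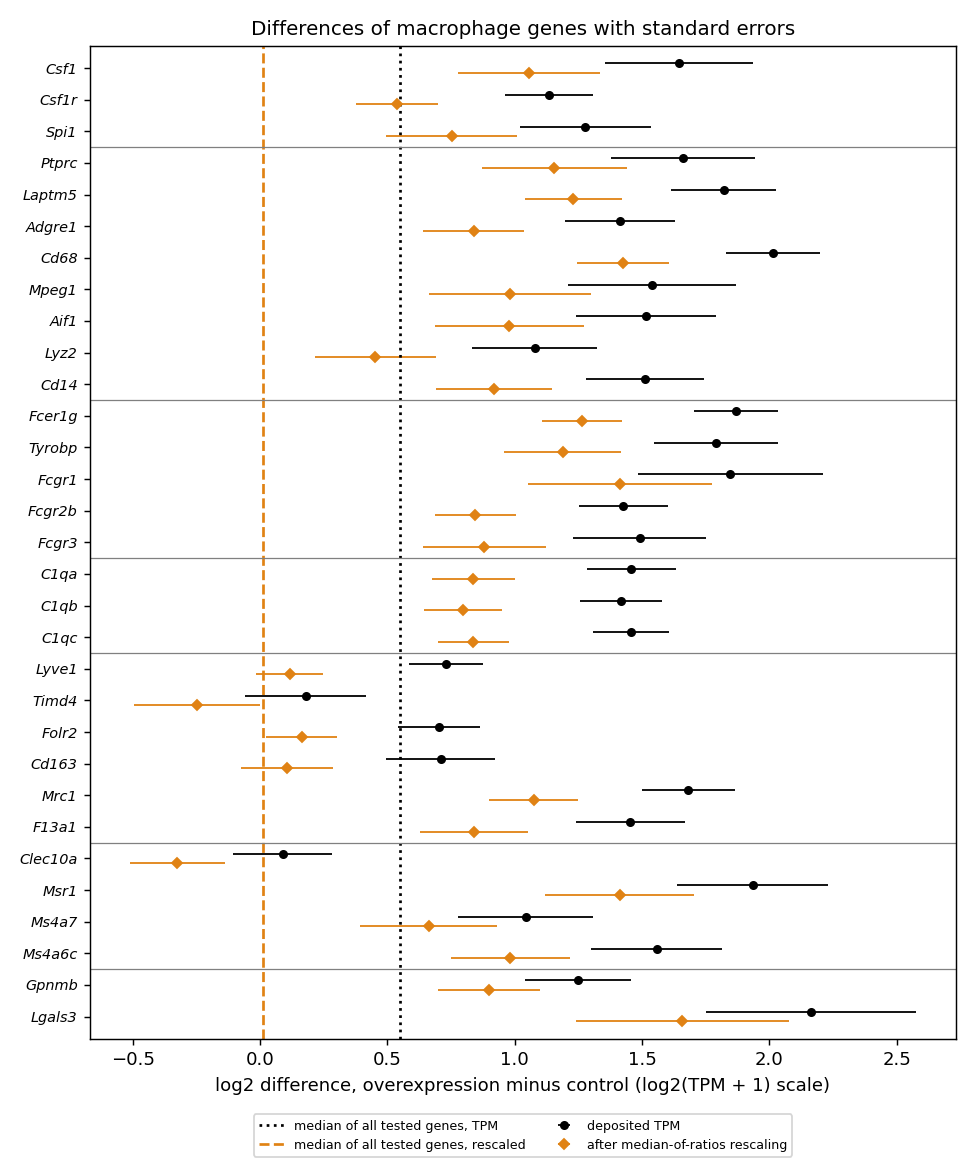
Log2 difference, overexpression minus control, for each macrophage gene with its standard error from the limma fit (3 against 3 libraries), in deposited TPM (black circles) and after rescaling (orange diamonds), with the medians of all tested genes as vertical lines at 0.55 and 0.01. Lyve1, Timd4, Folr2, Cd163 and Clec10a lie near the medians, and most others lie to the right of them.

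The ligand, the receptor and the lineage factor all rose. Csf1, the growth factor that stromal cells and other cells secrete, was at 48.1, 35.5 and 20.7 TPM in overexpression replicates 1 to 3, against 7.17, 11.4 and 11.6 TPM in control replicates 1 to 3. Its log2 difference was 1.65 (SE 0.291, limma adjusted p = 0.00125) and 1.06 after rescaling (adjusted p = 0.0162). Within the controls Csf1 was lowest in replicate 1, the library where the general macrophage genes were highest. Csf1r was at 39.98, 32.1 and 25.2 TPM in the overexpression libraries, against 15.8, 13.7 and 12.5 TPM in the control libraries. The receptor rose 2.31-fold in TPM and 1.49-fold after rescaling (limma adjusted p = 0.000576 and 0.0269), one of the smaller rises among the genes called under both scalings. Spi1 was at 15.1, 7.33 and 7.12 TPM with overexpression, against 3.32, 3.14 and 3.29 TPM in controls (log2 difference 1.28, SE 0.257, limma adjusted p = 0.00241). After rescaling the Spi1 difference was 0.75 with an adjusted p of 0.0446, and under quantile normalization it was not called (0.72, adjusted p = 0.054).

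Of the other genes of this axis, Il34, the second ligand of CSF1R, averaged 4.34 ± 1.36 TPM with overexpression and 2.17 ± 0.83 TPM in controls (SD, n = 3 each). It was called in TPM (limma adjusted p = 0.0284) and not after rescaling (adjusted p = 0.351). Csf2ra, a receptor chain for GM-CSF, rose 4.92-fold to 15.6 ± 2.61 TPM, against 3.18 ± 0.249 TPM in controls (SD, n = 3 each), and was called under both scalings. Of 6 genes for CSF receptors and related ligands, 4 were tested, and Csf2rb and Csf3r were among them through the overexpression group alone, with control means of 0.775 and 0.462 TPM. All 4 were called higher in TPM, where 59.0% of all genes were, and 2, Csf2ra and Csf2rb, after rescaling, where 22.2% of all genes were. Csf2 and Csf3 were listed at 0 in all control libraries and were not above 0.241 TPM in any overexpression library.

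The PU.1 protein binds a core of GAGGAA, and the stretch upstream of the transcription start was searched for it on both strands (TTCCTC on the other strand). The promoters searched, taken from the RefSeq promoter table (GRCm38.p6), covered 22 of the 31 genes. Of these 22, 10 (45.5%) had GAGGAA within 250 bases upstream of a start, as did 25.9% of 27025 genes with the same window. The 10 genes were Ptprc, Laptm5, Cd68, Aif1, Fcgr1, Fcgr3, C1qb, C1qc, Mrc1 and F13a1. All 10 were called higher under both scalings, as were 7 of the 12 without the letters and 22.2% of all genes. Some searched stretches overlapped exons of GENCODE M21, by 191 of the 250 bases for Laptm5 and 151 for C1qc. The part of PU.1 in these levels was not tested. A match describes the letters and is not a binding site, and no match says nothing of the factor. The first 4 sequences below belong to genes that rose and contain the core, and Gpnmb, which rose, and Timd4, which was not called, stand beside them without it. Each is the 250 bases 5′ of the RefSeq start, written 5′ to 3′ on the gene's strand, with the core in capitals. They lie at chr11:69666171-69666420 (Cd68, minus strand), chr4:136886201-136886450 (C1qb, minus), chr3:96293970-96294219 (Fcgr1, minus), chr13:37050245-37050494 (F13a1, minus), chr6:49036268-49036517 (Gpnmb, plus) and chr11:46810549-46810798 (Timd4, plus), and none overlaps an exon of GENCODE M21.
Cd68: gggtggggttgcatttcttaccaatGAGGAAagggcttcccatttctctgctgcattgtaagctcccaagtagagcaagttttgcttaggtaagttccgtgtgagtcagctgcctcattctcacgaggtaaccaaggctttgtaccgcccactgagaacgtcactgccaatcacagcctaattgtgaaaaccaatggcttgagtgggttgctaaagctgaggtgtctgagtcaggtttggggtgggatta
C1qb: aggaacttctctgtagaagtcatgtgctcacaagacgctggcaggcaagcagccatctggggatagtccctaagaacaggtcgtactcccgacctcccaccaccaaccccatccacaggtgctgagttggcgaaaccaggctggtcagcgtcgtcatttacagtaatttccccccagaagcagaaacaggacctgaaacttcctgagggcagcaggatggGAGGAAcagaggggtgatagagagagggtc
Fcgr1: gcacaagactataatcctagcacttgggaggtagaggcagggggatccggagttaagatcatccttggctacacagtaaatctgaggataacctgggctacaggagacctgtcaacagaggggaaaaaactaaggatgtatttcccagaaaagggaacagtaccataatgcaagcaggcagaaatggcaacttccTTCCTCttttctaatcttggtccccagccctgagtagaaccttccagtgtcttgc
F13a1: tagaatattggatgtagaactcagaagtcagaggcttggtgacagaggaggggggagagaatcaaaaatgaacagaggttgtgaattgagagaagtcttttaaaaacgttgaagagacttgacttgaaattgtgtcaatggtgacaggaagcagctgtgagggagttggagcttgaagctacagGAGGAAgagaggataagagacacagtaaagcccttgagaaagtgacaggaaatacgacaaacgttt
Gpnmb: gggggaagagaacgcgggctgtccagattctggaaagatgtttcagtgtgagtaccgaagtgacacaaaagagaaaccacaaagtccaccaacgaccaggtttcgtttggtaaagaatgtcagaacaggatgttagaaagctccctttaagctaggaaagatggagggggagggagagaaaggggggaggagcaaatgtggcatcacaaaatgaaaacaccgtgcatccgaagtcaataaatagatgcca
Timd4: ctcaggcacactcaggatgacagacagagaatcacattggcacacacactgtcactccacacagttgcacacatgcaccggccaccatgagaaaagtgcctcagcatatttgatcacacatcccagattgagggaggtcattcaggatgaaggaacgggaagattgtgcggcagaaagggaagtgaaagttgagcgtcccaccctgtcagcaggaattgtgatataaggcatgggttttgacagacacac

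The 8 general leukocyte and macrophage genes were all called higher in TPM (59.0% of all genes), and 7 were called after rescaling (22.2% of all genes). Cd68, a lysosomal membrane glycoprotein of macrophages, was at 47.9, 38.0 and 30.8 TPM in overexpression replicates 1 to 3, against 10.8, 8.12 and 7.56 TPM in control replicates 1 to 3. It rose 4.41-fold (log2 difference 2.01, SE 0.186, limma adjusted p = 5.83e-05), and 2.84-fold after rescaling. Adgre1, which encodes the F4/80 antigen of mouse macrophages, was at 27.5, 20.7 and 15.1 TPM with overexpression, against 7.78, 7.82 and 5.78 TPM in controls, 2.96-fold higher. Ptprc, the CD45 phosphatase carried by all leukocytes, was at 15.1, 7.93 and 7.26 TPM with overexpression, against 3.07, 2.62 and 1.55 TPM in controls. All overexpression libraries lay above all control libraries, and overexpression replicate 1 stood apart from the other overexpression libraries. Laptm5, a lysosomal protein of blood cells, rose 3.89-fold and Mpeg1, the pore-forming perforin-2 of phagocytes, 3.61-fold. Aif1, the actin-binding IBA1, rose 3.30-fold, and Cd14, a co-receptor for bacterial lipopolysaccharide, 2.93-fold.

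Lyz2, the lysozyme of macrophages and neutrophils, had the highest level of the 31 genes, at 535, 385 and 251 TPM in overexpression replicates 1 to 3, against 205, 176 and 151 TPM in control replicates 1 to 3. Its groups did not overlap in TPM (2.20-fold, limma adjusted p = 0.0044). After rescaling they overlapped and the gene was not called (log2 difference 0.45, limma adjusted p = 0.155), whereas under quantile normalization it was called (0.76, adjusted p = 0.0452). Lyz1 is a near-identical copy of Lyz2, and how reads were divided between them is not known here.

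Adaptor chains and Fc receptors rose together, with all 5 called higher under both scalings, as were 22.2% of all genes. Fcer1g and Tyrobp encode small membrane adaptors whose tyrosine motifs (ITAMs) carry the signal of Fc receptors and of TREM2. Fcer1g was at 75.3, 58.8 and 46.6 TPM in overexpression replicates 1 to 3, against 16.6, 14.8 and 15.04 TPM in control replicates 1 to 3, with the smallest limma adjusted p of the 31 genes (5.01e-05). Tyrobp was at 75.5, 59.9 and 37.8 TPM with overexpression, against 18.4, 16.0 and 12.3 TPM in controls. The lowest overexpression library was thus above the highest control library by more than the control range for both adaptors. Fcgr1, the high-affinity IgG receptor, had the largest ratio of means at 6.999, with 13.3, 4.73 and 3.81 TPM in overexpression replicates 1 to 3, against 1.17, 0.968 and 0.981 TPM in control replicates 1 to 3. Replicate 1 sets much of that ratio, and without it the log2 difference was 1.36 (limma adjusted p = 0.000653), against 1.85 with all libraries. Fcgr2b, the inhibitory IgG receptor, averaged 23.3 ± 5.39 TPM with overexpression and 7.91 ± 0.728 TPM in controls, and Fcgr3, an activating receptor that signals through Fcer1g, 67.8 ± 19.9 and 23.4 ± 6.47 TPM (SD, n = 3 each). Fcgr2b, Fcgr3 and Fcer1g lie within the stretch from 170958617 to 171234365 on the minus strand of chromosome 1, while Fcgr1 lies on chromosome 3 (GRCm38, GENCODE M21). Fcgr2b and Fcgr3 have similar extracellular sequences, so reads of the pair may have been divided between them.

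Genes linked to ITAM signalling rose as well. Of 12 listed signalling genes 10 were tested, 8 of which averaged 1 TPM or more in controls, and all 10 were higher in TPM and after rescaling, against 59.0% and 22.2% of all genes. Their median log2 difference was 1.42, against 0.55 for all genes. Syk, the kinase that docks on phosphorylated ITAMs, was at 25.8, 30.9 and 26.6 TPM in overexpression replicates 1 to 3, against 7.81, 8.64 and 8.16 TPM in control replicates 1 to 3 (3.39-fold, limma adjusted p = 2.16e-05). Unlike most macrophage genes, Syk was not highest in overexpression replicate 1. Lyn, a Src-family kinase that phosphorylates ITAMs, averaged 23.2 ± 4.76 TPM with overexpression and 9.30 ± 1.46 TPM in controls (SD, n = 3 each). Of the phagocyte oxidase genes 6 of 6 were higher in TPM and 3 of 6 after rescaling, against the same 59.0% and 22.2%. Its membrane subunits Cyba and Cybb were 1.74-fold and 2.82-fold higher in TPM and neither was called after rescaling (limma adjusted p = 0.432 and 0.0567).

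**Figure D3:**
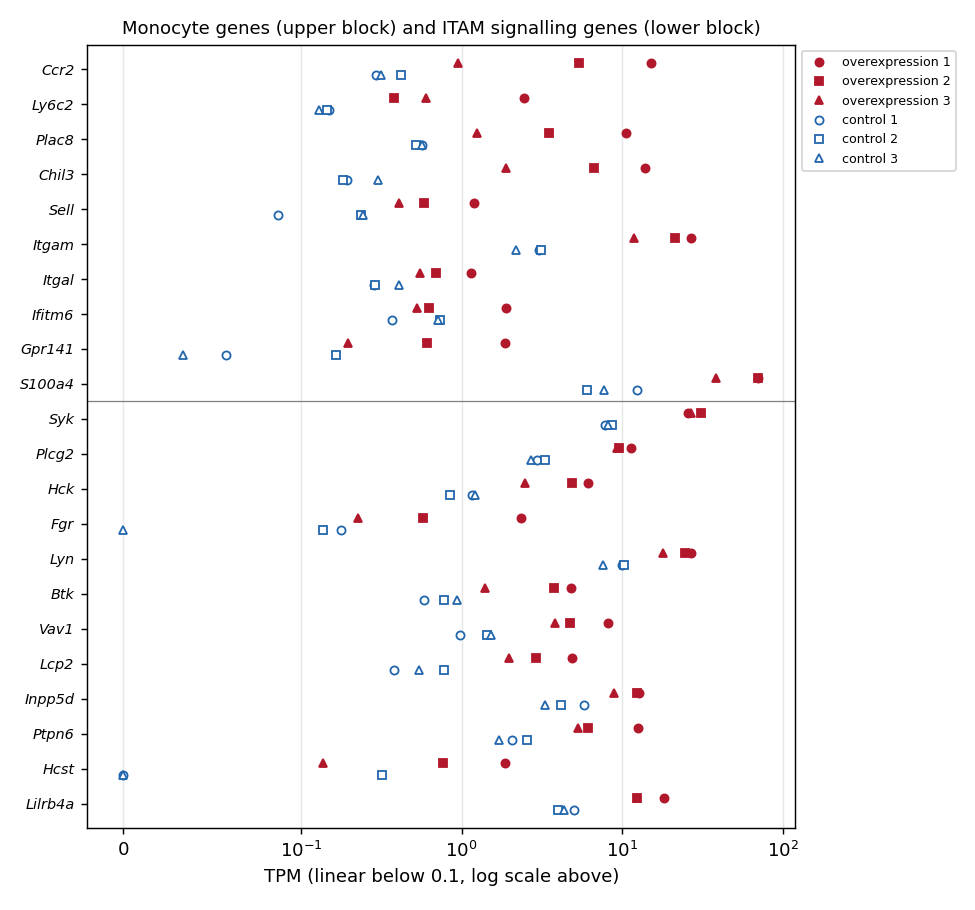
TPM of 10 monocyte genes and 12 ITAM signalling genes by library, on an axis that is linear below 0.1 TPM and logarithmic above, with overexpression libraries in filled red and control libraries in open blue. Ccr2, Plac8 and Chil3 are below 1 TPM in all control libraries and spread widely among the overexpression libraries, while Syk and Plcg2 are close together within each group.

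The 3 chains of complement C1q, which resident and recruited macrophages both secrete, moved as a unit. C1qa was at 211, 176 and 133 TPM in overexpression replicates 1 to 3, against 71.5, 60.7 and 53.2 TPM in control replicates 1 to 3. C1qb was at 194, 154 and 122 TPM with overexpression, against 62.5, 57.3 and 52.0 TPM in controls. C1qc was at 157, 143 and 109 TPM with overexpression, against 55.5, 44.5 and 46.2 TPM in controls. The ratios of means were 2.80, 2.74 and 2.80 in TPM and 1.81, 1.77 and 1.80 after rescaling, all called under both scalings (largest limma adjusted p = 0.00416). Over all genes, 22.2% were called higher under both scalings. The genes lie side by side on the minus strand of chromosome 4, from 136880129 to 136898803 (GRCm38, GENCODE M21), in the order C1qb, C1qc, C1qa.

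Resident-type genes split. Mrc1, the mannose receptor, and F13a1, the A chain of coagulation factor XIII made by macrophages, rose like the general genes. Mrc1 was at 77.4, 66.1 and 49.9 TPM in overexpression replicates 1 to 3, against 23.4, 17.7 and 16.7 TPM in control replicates 1 to 3 (3.34-fold, limma adjusted p = 0.000116). F13a1 was at 114, 96.1 and 79.6 TPM with overexpression, against 46.8, 33.7 and 25.5 TPM in controls (2.74-fold, limma adjusted p = 0.00049). Neither pair of groups overlapped under either scaling.

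Lyve1, Folr2 and Cd163 were higher in TPM by 0.70 to 0.73 on the log2 scale, where the median of all genes was 0.55, and none of them was called after rescaling. Lyve1, a hyaluronan receptor, was at 55.4, 72.5 and 54.3 TPM in overexpression replicates 1 to 3, against 41.97, 32.3 and 34.1 TPM in control replicates 1 to 3. Its log2 difference was 0.73 in TPM (limma adjusted p = 0.00232) and 0.12 after rescaling (adjusted p = 0.507). Folr2, the folate receptor beta, was at 9.21, 8.57 and 6.80 TPM with overexpression, against 5.11, 4.75 and 4.03 TPM in controls. That difference was 0.70 in TPM (limma adjusted p = 0.00446) and 0.16 after rescaling (adjusted p = 0.368). Cd163, the scavenger receptor for haemoglobin bound to haptoglobin, was at 35.9, 44.7 and 24.9 TPM with overexpression, against 23.4, 22.2 and 16.6 TPM in controls. Its call in TPM (0.71, limma adjusted p = 0.0169) ended without overexpression replicate 2 (adjusted p = 0.0649) or control replicate 3 (adjusted p = 0.066), and with mitochondrially encoded genes removed (0.44, adjusted p = 0.0812), and after rescaling the difference was 0.11 (adjusted p = 0.666).

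Timd4, a phosphatidylserine receptor of self-renewing resident macrophages, did not pass the test under either scaling. It was at 2.86, 2.06 and 2.62 TPM in overexpression replicates 1 to 3, against 2.88, 2.50 and 1.17 TPM in control replicates 1 to 3, and the groups overlapped. Its log2 difference was 0.18 in TPM (SE 0.238, limma adjusted p = 0.519) and turned to -0.25 after rescaling (adjusted p = 0.446). These levels rest on an estimated 121, 79 and 187 counted read ends in the overexpression libraries and 126, 154 and 44 in the control libraries. Clec10a, a galactose-binding lectin of macrophages and dendritic cells, was likewise not called, at 2.60, 2.07 and 1.54 TPM in overexpression replicates 1 to 3, against 2.36, 1.60 and 1.66 TPM in control replicates 1 to 3. Its log2 difference was 0.09 in TPM (limma adjusted p = 0.695) and -0.32 after rescaling (adjusted p = 0.191). A p above the threshold does not show that either gene was unaltered.

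Lyve1 also marks lymphatic endothelium, whose 6 markers summed to 59.1 to 70.9 TPM in the overexpression libraries and 40.8 to 50.6 TPM in the control libraries. Of these 6, Pdpn alone was called higher in TPM and after rescaling, where 59.0% and 22.2% of all genes were. The other 5 were not called in TPM. The sums include Pdpn, which was at 25.7, 25.0 and 16.0 TPM in overexpression replicates 1 to 3, against 4.81, 3.32 and 4.13 TPM in control replicates 1 to 3. Flt4, Ccl21a, Mmrn1 and Reln averaged 12.0, 4.90, 10.8 and 2.50 TPM with overexpression, against 9.31, 3.18, 11.2 and 2.39 TPM in controls. Prox1, the factor that defines lymphatic cells and is also found in cardiomyocytes, was at 11.5 ± 2.25 TPM with overexpression and 16.6 ± 6.01 TPM in controls (SD, n = 3 each). Prox1 was not called in TPM and was lower after rescaling (-1.03, limma adjusted p = 0.0119). The part of lymphatic cells in the Lyve1 level was not tested.

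Other genes of resident-type cells were counted from a separate list of 12. Of the 10 tested, limma called 7 higher in TPM and 0 lower (0 also at an unadjusted p below 0.05), and after rescaling 6 higher and 3 lower, against 59.0% and 22.2% of all genes called higher. Cx3cr1 was tested through the overexpression group alone. Cbr2, a carbonyl reductase found in resident macrophages, was 2.36-fold higher at 55.4 ± 4.52 TPM, against 23.5 ± 4.47 TPM in controls (SD, n = 3 each), and was called under both scalings. Selenop, a selenium carrier that other heart cells make as well, was at 225 ± 3.49 TPM with overexpression and 227 ± 25.2 TPM in controls and was called lower after rescaling only. In genes for uptake of dying cells, 5 of 6 tested were higher in TPM, and 2 were higher and 1 lower after rescaling, against 59.0% and 22.2% of all genes called higher. Mfge8, a bridge to phosphatidylserine, was 2.03-fold higher, and Gas6, the ligand of MERTK and AXL, was 1.13-fold higher in TPM without a call and lower after rescaling.

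Scavenger and MS4A family genes rose, apart from a loss of the Ms4a7 call. Msr1, the class A scavenger receptor that takes up modified lipoproteins, was at 20.1, 12.4 and 8.76 TPM in overexpression replicates 1 to 3, against 3.77, 2.68 and 1.83 TPM in control replicates 1 to 3 (4.99-fold, limma adjusted p = 0.000585). Its gap between groups held under both scalings. Ms4a6c was at 28.1, 25.9 and 14.2 TPM with overexpression, against 8.09, 7.24 and 5.21 TPM in controls (3.32-fold, limma adjusted p = 0.000867). Ms4a7 was at 3.93, 3.13 and 1.94 TPM with overexpression, against 1.54, 0.88 and 0.432 TPM in controls, and after rescaling its groups overlapped (adjusted p = 0.0774). The MS4A genes encode small membrane proteins with several close relatives, so reads may have been divided among them.

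Both injury-type genes with a row rose. Lgals3, galectin-3, was at 25.0, 12.3 and 6.88 TPM in overexpression replicates 1 to 3, against 1.19, 2.24 and 3.30 TPM in control replicates 1 to 3. It had the largest log2 difference of the 31 genes, 2.16 (SE 0.413, limma adjusted p = 0.00185), and 1.66 after rescaling (adjusted p = 0.0133). The spread within overexpression was wide, and without replicate 1 the difference was 1.72 (limma adjusted p = 0.00334). Gpnmb, a glycoprotein of lysosome-laden macrophages, was at 3.996, 2.37 and 2.38 TPM with overexpression, against 0.537, 0.839 and 0.499 TPM in controls (4.67-fold, limma adjusted p = 0.000902). MITF is known to drive Gpnmb in pigment cells and macrophages. Mitf, picked with its values known, was at 11.3 ± 2.05 TPM with overexpression and 20.1 ± 3.73 TPM in controls (SD, n = 3 each), called lower under both scalings. These are levels of the whole ventricle, and the part of Mitf in the Gpnmb level was not tested.

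Of 14 other genes linked to injury-type macrophages 10 were tested. In TPM 5 were higher and 2 lower, where 59.0% of all genes were higher and 9.09% lower, and after rescaling 3 were higher and 5 lower (all genes 22.2% and 24.0%). The 2 with the highest levels, the lipoprotein lipase gene Lpl and the fatty acid transporter gene Cd36, are also expressed by cardiomyocytes, and both were called lower under both scalings. Lpl was at 1428 ± 253 TPM with overexpression and 2843 ± 229 TPM in controls, and Cd36 at 385 ± 42.2 TPM with overexpression and 998 ± 106 TPM in controls (SD, n = 3 each). Spp1, which encodes osteopontin and was picked with its values known, passed the expression filter through the overexpression group alone. It was at 12.8, 5.53 and 4.95 TPM with overexpression, against 0.791, 0.468 and 0.46 TPM in controls, 13.6-fold higher.

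To compare the genes with each other free of library scaling, each level was divided by the geometric mean of the 8 general genes in the same library. The geometric mean of the 6 resident-type genes over the general level was 0.678, 0.920 and 0.983 in overexpression replicates 1 to 3, against 1.44, 1.502 and 1.37 in control replicates 1 to 3, so the groups did not overlap. Lyve1 was at 1.35, 2.50 and 2.50 times the general level with overexpression and at 3.82, 3.71 and 4.58 times in controls. Timd4 was at 0.0697, 0.071 and 0.12 times the general level with overexpression, against 0.262, 0.286 and 0.157 times in controls. Clec10a was at 0.0633, 0.0712 and 0.0708 times with overexpression, against 0.215, 0.184 and 0.223 times in controls. Mrc1 overlapped, at 1.89, 2.28 and 2.29 times with overexpression and 2.13, 2.03 and 2.25 times in controls.

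In a limma fit of all genes on this relative scale, 23 of the 31 genes were tested, the 8 that set the scale being left out. Lyve1, Timd4, Folr2, Cd163 and Clec10a were lower relative to the general genes, with log2 differences of -0.96, -0.99, -0.78, -0.95 and -1.05 (limma adjusted p = 0.0112, 0.00285, 0.0299, 0.0111 and 0.00134). A fall on this scale is the common case, as 66.6% of all genes were called lower and 2.74% higher. Of the 10 tested ITAM signalling genes, 0 were called higher and 0 lower on this scale, with a median log2 difference of 0.058. Lgals3 was higher relative to the general genes (0.73, limma adjusted p = 0.0399), although its control ratios, from 0.108 to 0.443, overlapped those with overexpression, from 0.317 to 0.609. The other 17 genes, among them the C1q chains, Csf1r, Fcgr1 and Gpnmb, were not called on this scale, although 9 of them (Csf1r, Spi1, Fcgr2b, Fcgr3, the C1q chains, F13a1 and Ms4a6c) had differences below 0, from -0.51 to -0.032. The ratios of the C1q chains and Csf1r were nevertheless lower in every overexpression library than in any control library. C1qa was at 5.13 to 6.12 times with overexpression against 6.51 to 7.16 times in controls, and Csf1r at 0.974 to 1.16 against 1.44 to 1.68 times. Those of Fcgr1 and Msr1 were higher in every overexpression library. How many of all genes separate in this way was not counted.

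**Figure D4:**
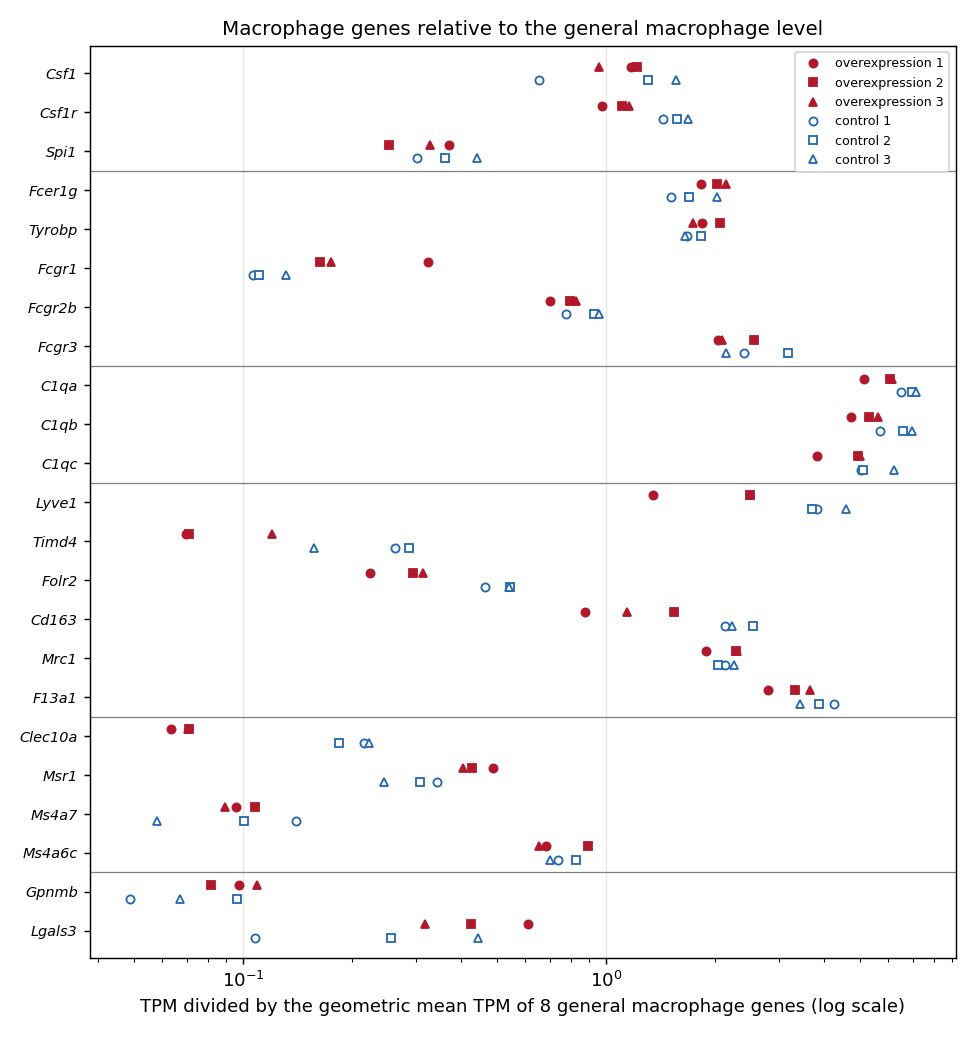
Level of 23 macrophage genes divided by the geometric mean TPM of 8 general macrophage genes in the same library, on a log scale, for overexpression (filled red) and control (open blue) libraries. Lyve1, Timd4, Folr2, Cd163 and Clec10a lie left of all control libraries with overexpression, while Mrc1, Tyrobp and Ms4a6c overlap.

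Of 10 listed genes of blood monocytes, 5 passed the expression filter. Of those, 3 (Ccr2, Plac8 and Chil3) did so through the overexpression group alone, so their increase was needed to pass. Itgam, the CD11b integrin chain, and S100a4, a calcium-binding protein, averaged above 1 TPM in controls. Itgam was at 26.6, 21.4 and 11.9 TPM in overexpression replicates 1 to 3, against 3.04, 3.14 and 2.17 TPM in control replicates 1 to 3 (7.17-fold, limma adjusted p = 0.000132). S100a4, also made by fibroblasts, was at 69.7, 69.98 and 38.6 TPM with overexpression, against 12.4, 6.02 and 7.65 TPM in controls (6.85-fold, limma adjusted p = 0.000113). Both were called higher relative to the general macrophage genes as well, by 0.93 and 1.01 on the log2 scale (limma adjusted p = 0.0108 and 0.00687). Ccr2, the receptor that brings monocytes out of the marrow, picked with its values known, was at 15.01, 5.40 and 0.946 TPM with overexpression, against 0.295, 0.419 and 0.312 TPM in controls. Its overexpression libraries differed more from each other than the lowest of them did from the controls. Chil3, a chitinase-like protein, and Cx3cr1, the fractalkine receptor, picked in the same way, were at 13.9, 6.66 and 1.90 TPM and at 8.17, 2.69 and 1.69 TPM with overexpression, and neither exceeded 0.3001 TPM in any control library.

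Markers of other leukocytes were summed per library. The 8 neutrophil markers summed to 11.9 to 33.4 TPM with overexpression and 4.93 to 6.62 TPM in controls, and S100a8 and S100a9, which monocytes make too, were called higher in TPM but not once rescaled (limma adjusted p = 0.15 and 0.0849). Camp and Ly6g were listed at 0 in all control libraries. In overexpression replicates 1 to 3 Camp was at 0, 0.15 and 0 TPM and Ly6g at 0, 0 and 0.194 TPM. Retnlg, Cxcr2, Mmp8 and Ngp missed the expression filter as well. They averaged 1.36, 0.70, 0.557 and 0.44 TPM with overexpression, against 0.389, 0.0884, 0.0524 and 0.205 TPM in controls. The 10 T, NK and B cell markers in the table summed to 2.71 to 3.52 TPM with overexpression and 1.23 to 1.99 TPM in controls, with none tested and Cd3d and Cd3g at 0 in all control libraries. The 6 dendritic cell markers summed to 8.36 to 16.2 TPM with overexpression and 7.69 to 11.5 TPM in controls. Neither of the 2 tested, Zbtb46 and Clec9a, was called, with 1 of them lower after rescaling at an unadjusted p below 0.05 in limma. Flt3, Xcr1, Cd209a and Siglech missed the expression filter. Their means were 0.443, 0.786, 1.31 and 0.171 TPM with overexpression, against 0.134, 0.121, 0.223 and 0.178 TPM in controls. The 5 mast cell markers summed to 6.35 to 8.79 TPM with overexpression and 4.31 to 9.91 TPM in controls, none of 4 tested being called by limma and 1 lower after rescaling at an unadjusted p below 0.05. Of 6 fibroblast markers 5 were called higher in TPM (59.0% of all genes) and 3 after rescaling (22.2% of all genes). Col1a2 was 6.23-fold higher, at 206 ± 48.9 TPM with overexpression and 33.1 ± 6.05 TPM in controls (SD, n = 3 each). It was called higher under both scalings. Dcn, decorin, at 304 ± 17.7 TPM with overexpression and 279 ± 40.8 TPM in controls (SD, n = 3 each), was not called in TPM and was lower after rescaling. Of 6 blood endothelial markers limma called none higher (1 in TPM at an unadjusted p below 0.05) and 2 lower after rescaling (24.0% of all genes). Of 8 cardiomyocyte markers 6 were lower in TPM (9.09% of all genes) and 1, the cardiac actin gene Actc1, was higher. After rescaling 7 were lower (24.0% of all genes) and Actc1 was not called. Myl2 was at 10695 ± 881 TPM with overexpression and 14174 ± 1044 TPM in controls (SD, n = 3 each), called lower under both scalings. The part of these cells in the macrophage values was not tested.

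Among transcription factors other than Spi1 that macrophages use, 6 of 9 tested were higher in TPM and 1, Mitf, was lower, and 2 were higher and 1 lower after rescaling, against 59.0% and 22.2% of all genes called higher. Runx1, 1 of the 2, passed the expression filter through the overexpression group alone. Those with the highest levels, Klf4 and Cebpb, are not particular to macrophages. Cebpb was 1.88-fold higher in TPM and lost its call after rescaling (limma adjusted p = 0.36), and Klf4 was not called, at 33.2, 48.6 and 69.8 TPM in overexpression replicates 1 to 3, against 120, 34.7 and 36.99 TPM in control replicates 1 to 3.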

How the data were processed

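The authors deposited 1 table of TPM by gene symbol for the 6 libraries, with columns named per the file headers. Per the labels' protocols, libraries of polyadenylated RNA came from a TruSeq kit, keep the strand and were read from both ends. Per the submitters' processing notes the tools were STAR-Fusion 1.11.0, GATK 4.2.6.1, edgeR 3.40.2 and featureCounts 2.0.3 and the build mm8, with no role stated. Aligner, annotation and strand setting of the counting were not given in the sources used here, so reads of overlapping genes and close copies are uncertain. Groups were taken from the genotype labels, and the sample titles use cki for control and cre for overexpression. Replicates 1 to 3 follow sample order. Nothing says that the libraries are separate animals beyond their title numbers, so the p-values rest on library-to-library spread, which may be technical, and no batch is given.

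The 12404 genes averaging 1 TPM or more over the 6 libraries were compared on log2(TPM + 1) in R 4.3.3 with limma 3.58.1, using a two-sided moderated test with a mean-variance trend, Benjamini-Hochberg adjusted over all genes at a threshold of 0.05. Low genes change less on this scale than in TPM, and a fold is a ratio of mean TPM. The same fit was run after median-of-ratios rescaling and after division by the geometric mean of 8 general macrophage genes. The alternatives were quantile normalization, removal of mitochondrially encoded genes, pseudocounts of 0.1 and 0.5, a filter of 0.2 TPM or none, no trend, and each library left out. The fit was tested on simulated data. The named genes include the 31 members, the 2 genes with the highest mean level of most other lists, and those stated as chosen after their values were seen. The 2 highest genes of the T, NK and B cell, mast cell and blood endothelial lists were not named. Further genes were named for values of 0, for passing or missing the expression filter, to show the rest of a list or as checks of the libraries. The members and lists were chosen with earlier results of these data known. TPM holds no depth. Counted read ends were estimated from steps in TPM times the GENCODE M21 exon length, which gave whole numbers in all libraries for 7 of 31 members, Timd4 among them, within 0.02 reads. Positions are those of GRCm38 and entered no test. The promoter search left out chromosome 18, so a member gene without a searched promoter may still have one in RefSeq. Figures were drawn with matplotlib 3.10.9.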

Additional observations from a re-analysis of the deposited data

How the results depend on the processing

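Of the 31 macrophage genes, 23 were called higher under every planned setting other than division by the general macrophage genes, and 0 were called lower under any of those settings. Leaving out each library in turn gave 28 or 29 macrophage genes called higher and 0 lower, with 6285 to 7234 genes of all called higher and 956 to 1077 lower in TPM. Counts over all genes depended on scaling: 7316 higher and 1127 lower in TPM became 2755 and 2972 after rescaling by median ratios, 2963 and 2816 under quantile normalization, and 2465 and 2767 after rescaling without overexpression replicate 1, a setting added after the data had been seen. Removing mitochondrially encoded genes gave 5179 genes called higher and 1718 lower. Timd4 and Clec10a changed sign without being called: rescaling gave -0.25 and -0.32, quantile normalization -0.32 and -0.43, removal of mitochondrial genes -0.0071 and -0.12, and rescaling without overexpression replicate 1 -0.31 and -0.43. Without single libraries their log2 differences in TPM ran from -0.08 to 0.34 for Timd4, negative without control replicate 3 (-0.076), and from -0.03 to 0.22 for Clec10a, negative without overexpression replicate 1 (-0.033). Over these settings their limma adjusted p ran from 0.246 to 0.983 and from 0.106 to 0.937. Dividing by the general macrophage genes changes the question, and by its construction it turned signs for Csf1r (-0.51), Spi1 (-0.18), Fcgr2b (-0.18), Fcgr3 (-0.19), C1qa (-0.25), C1qb (-0.29), C1qc (-0.25), Lyve1 (-0.96), Timd4 (-0.99), Folr2 (-0.78), Cd163 (-0.95), F13a1 (-0.24), Clec10a (-1.05) and Ms4a6c (-0.032). No paired analysis was possible because the labels give the groups no shared replicate numbers. The number of libraries, 3 a group, limits the precision, and the standard error of the log2 difference was widest for Lgals3 (0.413) and Fcgr1 (0.364).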
